A study of Mus musculus with 12 samples.

Results

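Interferon-stimulated genes are the genes that a cell switches on when an interferon binds its receptor, and they were followed here in the aortic arch of Apoe-/- and wild type mice on a high-fat diet. They were taken as a list of 35 genes by name, older gene names included. The list was chosen with earlier results of these data known. Of the 35, 34 had a named probe and 32 had a value on all 12 arrays, and these 32 were tested among 19706 genes. Xaf1 was not analysed here. Ifih1 lacked a value in pool 5 and Oasl2 in pool 17. Dhx58, Irf9, Isg15, Cmpk2, Gbp3 and Rtp4 were found under older names.

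Interferons are secreted signals of antiviral defence. Type I interferons act through the receptor chains Ifnar1 and Ifnar2, the kinases Jak1 and Tyk2 and a complex that holds Stat2 and Irf9 and binds the interferon-stimulated response element in gene promoters. Interferon gamma acts through Ifngr1 and Ifngr2, and its target genes often carry the gamma-activated sequence. The induced genes encode sensors of foreign nucleic acid, proteins that block viral growth, parts of antigen presentation and the factors of the pathway itself. In atherosclerotic arteries, macrophages that express such genes are a recognised subset of plaque cells.

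The samples were pools of aortic arch RNA from C57BL/6 mice on a high-fat diet begun at 8 weeks of age. Apoe-/- mice, which lack apolipoprotein E and develop atherosclerosis, had the diet for 8 weeks (pools 1 to 3), 16 weeks (pools 4 to 6) or 24 weeks (pools 10 to 12), without a drug per the labels. Wild type mice had it for 16 weeks (pools 16 to 18). Each pool held 3 mice, except pool 2 at 8 weeks, which held 2. Every array set a pool in Cy5 against 1 reference in Cy3, a mix in equal amounts of Apoe-/- arch RNA of the 3 diet times (21 mice, labelled vehicle), and dyes were not swapped. Wild type mice were studied at 16 weeks only, so in the 8- and 24-week comparisons genotype cannot be told apart from age and length of diet. The labels name the arch, while the design text describes collection of the whole aorta, and pools 3 and 6 are marked with an asterisk that the labels leave unexplained.

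All values below are log2 ratios of a pool to that reference, or differences between group means of such ratios, with n = 3 pools per group. A value of 0 is the reference and not the absence of a transcript, and neither the level of a gene nor its signal over background is known. Apoe itself had ratios between -0.20 and 0.23 in the 9 Apoe-/- pools and of 2.01 to 2.85 in the wild type pools, the direction that the labelled dyes give. Across genes the 24-week arrays correlated negatively with those at 8 weeks (median r = -0.54), at 16 weeks (-0.322) and of wild type (-0.477). The dyes are stated in the labels, so the direction was kept. Medians of the arrays as deposited lay between -0.0025 and 0.0181 (taken as log10). The log base was not stated, and all log2 values and fold changes here rest on base 10. Pool 2 had the widest ratios (interquartile range 0.5382, log2, against 0.1262 in pool 10). In tissue of this kind, fewer cells of a type and less RNA per cell cannot be told apart.

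The promoters of Rsad2, Isg15, Bst2 and Oas1a are shown because, among the listed genes whose promoter held the interferon-stimulated response element, these differed most from wild type at 16 weeks. Each runs from 250 bases before to 50 bases after the transcript start in RefSeq (GRCm38.p6), 5′ to 3′ along the gene. They lie at chr12:26456403-26456702 on the minus strand, chr4:156200769-156201068 on the minus strand, chr8:71537423-71537722 on the minus strand and chr5:120907476-120907775 on the minus strand. Capitals mark matches to GAAANNGAAA or, on the other strand, TTTCNNTTTC, and overlapping matches run together.
Rsad2: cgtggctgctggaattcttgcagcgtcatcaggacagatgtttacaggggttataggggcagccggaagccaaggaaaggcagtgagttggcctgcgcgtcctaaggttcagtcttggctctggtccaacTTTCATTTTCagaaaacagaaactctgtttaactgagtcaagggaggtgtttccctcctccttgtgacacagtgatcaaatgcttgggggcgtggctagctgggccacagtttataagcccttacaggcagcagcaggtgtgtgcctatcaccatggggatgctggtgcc
Isg15: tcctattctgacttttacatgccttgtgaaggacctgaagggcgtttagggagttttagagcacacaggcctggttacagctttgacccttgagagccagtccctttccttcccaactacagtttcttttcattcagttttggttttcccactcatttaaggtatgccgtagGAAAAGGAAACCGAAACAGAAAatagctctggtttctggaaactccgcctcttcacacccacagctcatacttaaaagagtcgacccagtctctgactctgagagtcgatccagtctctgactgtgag
Bst2: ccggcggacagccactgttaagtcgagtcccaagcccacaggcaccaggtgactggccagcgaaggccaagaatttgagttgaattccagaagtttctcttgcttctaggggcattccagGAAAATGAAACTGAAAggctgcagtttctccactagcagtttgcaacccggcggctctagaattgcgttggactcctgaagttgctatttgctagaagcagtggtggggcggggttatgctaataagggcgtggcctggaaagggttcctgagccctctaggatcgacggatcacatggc
Oas1a: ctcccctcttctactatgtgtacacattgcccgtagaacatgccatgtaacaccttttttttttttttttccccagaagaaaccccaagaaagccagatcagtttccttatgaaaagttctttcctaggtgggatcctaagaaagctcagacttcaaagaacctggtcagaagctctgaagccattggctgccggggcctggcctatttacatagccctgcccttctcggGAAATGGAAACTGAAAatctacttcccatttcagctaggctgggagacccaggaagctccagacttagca
Isg15 held 3 overlapping matches, the first beginning 78 bases before the start. Bst2 held 2 (from 130 bases before), Oas1a 2 (from 20 bases before) and Rsad2 1, on the other strand (120 bases before).

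Of 27 listed genes with a promoter in the table, 14 held this motif (51.9%), against 3.99% of 27025 promoters of all genes. The gamma-activated sequence, searched as TTCNNNGAA, which reads alike on both strands, was found in 8 of the 27 (29.6%), against 9.55% of all promoters. The 2 motifs are different in their letters, and 4 promoters held both. Among the genes with a promoter that were higher at 24 weeks, 7 of 15 held the response element, as did 6 of 9 tested genes that did not pass there. Ddx58, Eif2ak2, Gbp2, Gbp3 and Ifit3 held it and did not pass in any comparison with wild type. A match is a stretch of letters and not a measured binding site.

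At 16 weeks, where the genotypes are matched for age and diet, 11 of the 32 genes were higher in Apoe-/- than in wild type arches and none was lower (limma, adjusted p under 0.05). This is 34.4% of the list, against 10.1% of all genes called (6.03% higher and 4.07% lower). The 11 were Rsad2, Rtp4, Isg15, Zbp1, Dhx58, Oasl1, Oas2, Bst2, Oas1a, Irf1 and Stat2, between 1.42-fold and 3.64-fold higher. The median difference over the 32 genes was 0.47 (log2), against -0.03 over all genes. All 3 Apoe-/- pools lay above all 3 wild type pools for 20 of 32 genes, against 13.5% of all genes, and below them for 1, Ddx58. The count was 6 without pool 5 and 6 without wild type pool 17. It was 2 with quantile normalization between arrays and 24 with arrays weighted by quality.

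**Figure D1:**
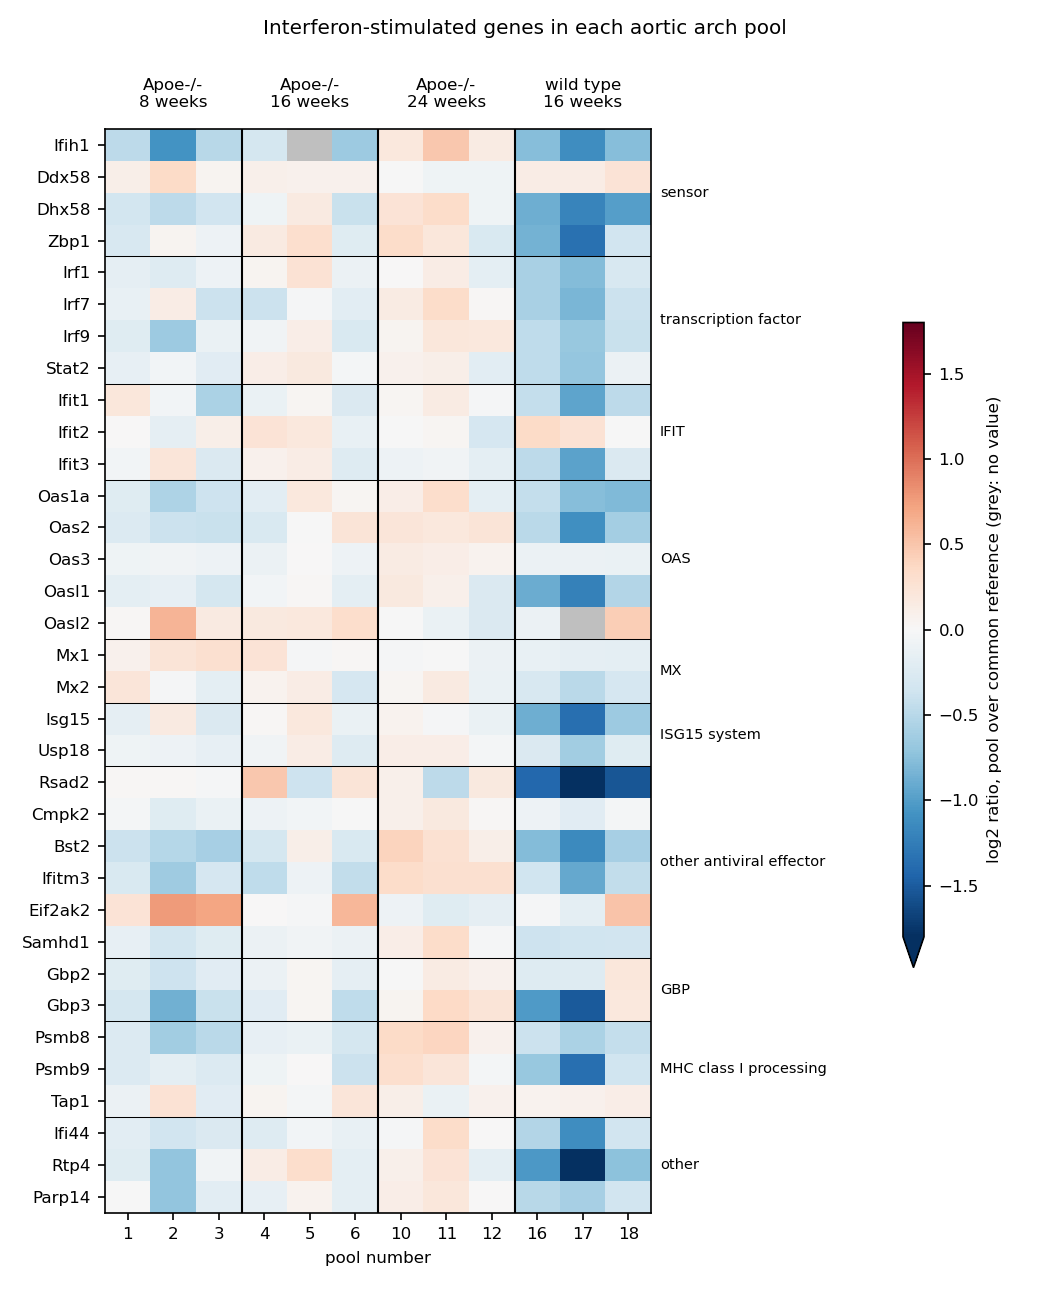
Log2 ratio of each of the 12 pools (columns, grouped by genotype and weeks of diet) to the common reference for the 34 genes with a probe (rows, grouped by role), with red above and blue below the reference, grey where a pool has no value, and the darkest blue for values at or below the end of the scale. The wild type columns are the bluest for most rows, and pool 17 most of all (Rsad2 -2.29, Rtp4 -1.79).

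The sensors of foreign nucleic acid differed among themselves. Dhx58 (LGP2), a helicase that tunes the other RNA sensors, had log2 ratios of -0.33, -0.47 and -0.34 at 8 weeks, -0.08, 0.16 and -0.40 at 16 weeks, 0.25, 0.33 and -0.08 at 24 weeks and -0.88, -1.19 and -0.99 in wild type. No Apoe-/- pool of any time overlapped the wild type pools. At 16 weeks Dhx58 was 1.88-fold higher (log2 difference 0.91, 95% confidence interval 0.58 to 1.24, adjusted p = 0.00248). Zbp1, a sensor of nucleic acid in the Z form, had -0.29, 0.05 and -0.09 at 8 weeks, 0.16, 0.30 and -0.22 at 16 weeks, 0.34, 0.20 and -0.27 at 24 weeks and -0.85, -1.34 and -0.35 in wild type. The Apoe-/- pools lay above wild type at all times, but wild type pool 18 came close to pools 1, 6 and 12. Zbp1 was 1.90-fold higher (95% confidence interval 1.32 to 2.74, log2 difference 0.93 ± 0.24 SE, adjusted p = 0.0312) at 16 weeks, and that call was lost in 6 of 20 alternative settings. Ddx58 (RIG-I), the sensor of uncapped viral RNA, differed by -0.09 (95% confidence interval -0.27 to 0.09) at 16 weeks and did not pass. Ifih1 (MDA5), the sensor of long double-stranded RNA, had -0.48, -1.08 and -0.50 at 8 weeks, -0.32 and -0.66 at 16 weeks, 0.20, 0.48 and 0.15 at 24 weeks and -0.77, -1.12 and -0.77 in wild type. When genes with missing values were kept, Ifih1 was 2.23-fold higher at 24 weeks (log2 1.16 ± 0.18, adjusted p = 0.00100). It did not pass at 16 weeks, with 2 pools there (0.40 ± 0.20, adjusted p = 0.290).

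Of the 4 transcription factors, Irf1 and Stat2 were higher at 16 weeks, and Irf1, Irf7 and Irf9 at 24 weeks. Irf1, a factor induced by interferon gamma in particular, had log2 ratios of -0.16, -0.24 and -0.10 at 8 weeks, 0.06, 0.26 and -0.10 at 16 weeks, 0.01, 0.14 and -0.17 at 24 weeks and -0.58, -0.77 and -0.29 in wild type. The Apoe-/- pools of each time lay above the wild type pools. Irf1 was 1.54-fold higher (95% confidence interval 1.25 to 1.88, log2 difference 0.62 ± 0.13 SE, adjusted p = 0.0121) at 16 weeks and 1.45-fold higher (log2 0.54 ± 0.13, adjusted p = 0.0128) at 24 weeks. Stat2, which carries the activation domain of the type I complex, had -0.14, -0.04 and -0.21 at 8 weeks, 0.12, 0.18 and -0.04 at 16 weeks, 0.08, 0.10 and -0.19 at 24 weeks and -0.46, -0.70 and -0.10 in wild type. Only the 16-week pools stayed clear of wild type, since wild type pool 18 lay among the 8- and 24-week values. Stat2 was 1.42-fold higher (95% confidence interval 1.15 to 1.75, log2 difference 0.51 ± 0.14 SE, adjusted p = 0.0408) at 16 weeks, a call lost in 12 of 20 alternative settings. Irf7, which drives the interferon alpha genes, was 1.70-fold higher (log2 0.76 ± 0.16, adjusted p = 0.00429) at 24 weeks, where its pools lay above all wild type pools, and differed by 0.40 ± 0.16 (adjusted p = 0.151) at 16 weeks. Irf9, the DNA-binding part of the type I complex, was 1.58-fold higher (log2 0.66 ± 0.15, adjusted p = 0.00699) at 24 weeks.

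The OAS enzymes make oligoadenylates that activate RNase L, which degrades RNA. Of the 4 tested, 3 were higher at 16 weeks and 4 at 24 weeks. Oas2 had log2 ratios of -0.25, -0.39 and -0.40 at 8 weeks, -0.28, -0.01 and 0.24 at 16 weeks, 0.22, 0.19 and 0.24 at 24 weeks and -0.48, -1.10 and -0.61 in wild type. All wild type pools lay below all Apoe-/- pools, and the 24-week pools were the tightest group. Oas2 was 1.65-fold higher (95% confidence interval 1.30 to 2.09, log2 difference 0.72 ± 0.16 SE, adjusted p = 0.0131) at 16 weeks and 1.93-fold at 24 weeks. Oas1a had -0.21, -0.55 and -0.37 at 8 weeks, -0.19, 0.19 and 0.04 at 16 weeks, 0.12, 0.31 and -0.17 at 24 weeks and -0.43, -0.77 and -0.80 in wild type. At 8 weeks its pools overlapped those of wild type, and at the later times they did not. Oas1a was 1.60-fold higher (95% confidence interval 1.27 to 2.01, log2 difference 0.68 ± 0.15 SE, adjusted p = 0.0146) at 16 weeks and 1.68-fold at 24 weeks. Oasl1, a relative without this enzyme activity that holds back Irf7 in mice, had -0.17, -0.15 and -0.31 at 8 weeks, -0.05, 0.02 and -0.18 at 16 weeks, 0.17, 0.09 and -0.26 at 24 weeks and -0.90, -1.22 and -0.53 in wild type. Its 9 Apoe-/- pools all lay above the wild type pools. Oasl1 was 1.76-fold higher (95% confidence interval 1.37 to 2.25, log2 difference 0.81 ± 0.16 SE, adjusted p = 0.00782) at 16 weeks. Oas3 had -0.08, -0.06 and -0.09 at 8 weeks, -0.10, 0.01 and -0.09 at 16 weeks, 0.14, 0.12 and 0.06 at 24 weeks and -0.10, -0.11 and -0.12 in wild type. Its 8- and 16-week values lay within a few hundredths of wild type except in pool 5, and the 24-week pools stood apart. Oas3 was among the 3 genes closest to wild type at 16 weeks (0.05 ± 0.06, adjusted p = 0.702) and was 1.16-fold higher (log2 0.22 ± 0.06, adjusted p = 0.0187) at 24 weeks. Oasl2, without a value in pool 17, did not pass in any comparison when genes with missing values were kept. The near copies of Oas1a in the mouse genome can share its probe, and the probe sequences were not used here.

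Isg15 is a small protein that is attached to other proteins like ubiquitin, and Usp18 removes it and damps the receptor. Isg15 had log2 ratios of -0.17, 0.16 and -0.25 at 8 weeks, 0.02, 0.19 and -0.12 at 16 weeks, 0.07, -0.03 and -0.13 at 24 weeks and -0.87, -1.36 and -0.65 in wild type. The gap between the lowest Apoe-/- pool and the highest wild type pool was wide, and the 3 Apoe-/- times overlapped each other. Isg15 was 1.99-fold higher (95% confidence interval 1.54 to 2.57, log2 difference 0.99 ± 0.17 SE, adjusted p = 0.00325) at 16 weeks, 1.83-fold at 8 weeks (adjusted p = 0.0239) and 1.91-fold at 24 weeks (adjusted p = 0.00207). It passed at 16 and 24 weeks in all 20 alternative settings, and its call at 8 weeks was lost in 5 of them, among them quantile normalization and the fits without wild type pool 16 or 17. Usp18 was 1.35-fold higher (log2 0.44 ± 0.12, adjusted p = 0.0209) at 24 weeks and differed by 0.32 ± 0.12 (adjusted p = 0.130) at 16 weeks.

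The IFIT proteins bind viral RNA and stall its translation. None of the 3 passed at 8 or 16 weeks, and Ifit1 was 1.59-fold higher (log2 0.67 ± 0.19, adjusted p = 0.0247) at 24 weeks. Ifit2 differed by -0.10 ± 0.13 (adjusted p = 0.774) at 16 weeks and -0.29 ± 0.13 (adjusted p = 0.150) at 24 weeks. The 2 probes of Ifit3 gave 0.91 ± 0.23 (adjusted p = 0.0293) and 0.21 ± 0.13 (adjusted p = 0.436) at 16 weeks when each was fitted on its own. The GTPases Mx1 and Mx2 trap viral particles, and C57BL/6 mice carry a defective Mx1. Mx1 had log2 ratios of 0.08, 0.23 and 0.28 at 8 weeks, 0.25, -0.03 and 0.02 at 16 weeks, -0.02, -0.01 and -0.10 at 24 weeks and -0.13, -0.17 and -0.18 in wild type. Its mean was highest at 8 weeks, though pool 4 at 16 weeks was as high, and the 24-week pools lay just above wild type. Mx1 was 1.28-fold higher (95% confidence interval 1.13 to 1.46, log2 difference 0.36 ± 0.08 SE, adjusted p = 0.0496) at 8 weeks, a call lost in 15 of 20 alternative settings. Its differences were 0.24 ± 0.08 (adjusted p = 0.103) at 16 weeks and 0.12 ± 0.08 (adjusted p = 0.341) at 24 weeks. Mx2 did not pass at any time.

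Rsad2 (viperin), an enzyme that makes a chain-ending nucleotide, differed most of the whole list at each time. Its log2 ratios were 0.02, 0.02 and -0.02 at 8 weeks, 0.48, -0.38 and 0.24 at 16 weeks, 0.10, -0.48 and 0.18 at 24 weeks and -1.41, -2.29 and -1.54 in wild type. The wild type pools lay far below all Apoe-/- pools, whose 3 times overlapped. Rsad2 was 3.64-fold higher (95% confidence interval 2.43 to 5.44, log2 difference 1.86 ± 0.26 SE, adjusted p = 0.000990) at 16 weeks, 3.37-fold at 8 weeks (adjusted p = 0.00817) and 3.21-fold at 24 weeks (adjusted p = 0.000805). With quantile normalization its call was lost at each time (adjusted p = 0.408 at 8 weeks, 0.135 at 16 weeks and 0.117 at 24 weeks), and at 8 weeks also with the fit limited to the groups compared. Cmpk2, its neighbour in the genome and a mitochondrial nucleotide kinase, differed by 0.06 ± 0.07 (adjusted p = 0.753) at 16 weeks and 0.21 ± 0.07 (adjusted p = 0.0718) at 24 weeks. The 2 genes lie side by side on chromosome 12, and the promoter of Cmpk2 held neither motif.

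Bst2 (tetherin), which holds budding viruses on the cell, had log2 ratios of -0.38, -0.52 and -0.60 at 8 weeks, -0.31, 0.10 and -0.28 at 16 weeks, 0.40, 0.27 and 0.11 at 24 weeks and -0.78, -1.15 and -0.60 in wild type. The 8-week pools touched the highest wild type pool, and the 24-week pools lay above all others, pool 12 only just above pool 5. Bst2 was 1.60-fold higher (95% confidence interval 1.27 to 2.02, log2 difference 0.68 ± 0.15 SE, adjusted p = 0.0144) at 16 weeks and 2.15-fold higher (95% confidence interval 1.71 to 2.71, log2 difference 1.11 ± 0.15 SE, adjusted p = 0.000295) at 24 weeks. Ifitm3, which blocks viral entry at endosomes, had -0.28, -0.64 and -0.30 at 8 weeks, -0.46, -0.09 and -0.44 at 16 weeks, 0.33, 0.29 and 0.29 at 24 weeks and -0.36, -0.92 and -0.45 in wild type. Its 24-week pools were tight and above all other pools, while the 8- and 16-week pools overlapped those of wild type. Ifitm3 was 1.84-fold higher (95% confidence interval 1.45 to 2.34, log2 difference 0.88 ± 0.16 SE, adjusted p = 0.00179) at 24 weeks and differed by 0.24 ± 0.16 (adjusted p = 0.423) at 16 weeks. Eif2ak2 (PKR), the kinase that halts translation on double-stranded RNA, ran the other way with 0.24, 0.77 and 0.71 at 8 weeks, 0.01, -0.02 and 0.60 at 16 weeks, -0.09, -0.22 and -0.17 at 24 weeks and -0.02, -0.18 and 0.51 in wild type. The 8-week pools lay above the 24-week pools, and the wild type pools spread over both. Eif2ak2 did not pass against wild type at any time. Samhd1, which destroys the nucleotides needed for viral DNA, was 1.42-fold higher (log2 0.50 ± 0.09, adjusted p = 0.00138) at 24 weeks as the mean of 2 probes. Its probes fitted singly gave 1.08 ± 0.13 (adjusted p = 0.000151) and -0.07 ± 0.09 (adjusted p = 0.628).

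The guanylate-binding proteins and the antigen-processing genes are strongly induced by interferon gamma. Gbp2 had log2 ratios of -0.21, -0.37 and -0.20 at 8 weeks, -0.10, 0.04 and -0.16 at 16 weeks, -0.01, 0.15 and 0.08 at 24 weeks and -0.24, -0.23 and 0.20 in wild type. Wild type pool 18 lay above the other wild type pools and above all Apoe-/- pools. Gbp2 did not pass against wild type at any time (0.01 ± 0.12, adjusted p = 0.973, at 16 weeks), and its 2 probes gave 0.54 ± 0.21 and -0.21 ± 0.11 at 24 weeks. Gbp3, taken from a probe that the annotation calls Gbp4, differed by 0.99 ± 0.34 (adjusted p = 0.0594) at 24 weeks with a wild type SD of 0.87. Its wild type ratios were -1.01 in pool 16, -1.51 in pool 17 and 0.19 in pool 18, so pool 18 stood apart for this gene as for Gbp2. Psmb8, an inducible subunit of the immunoproteasome, had -0.24, -0.62 and -0.48 at 8 weeks, -0.15, -0.12 and -0.32 at 16 weeks, 0.34, 0.38 and 0.07 at 24 weeks and -0.39, -0.57 and -0.43 in wild type. The 8-week pools overlapped wild type, the 16-week pools lay just above it, and the 24-week pools stood above all others. Psmb8 was 1.65-fold higher (95% confidence interval 1.39 to 1.97, log2 difference 0.73 ± 0.11 SE, adjusted p = 0.000783) at 24 weeks. Its partner subunit Psmb9 was 1.94-fold higher (log2 0.96 ± 0.21, adjusted p = 0.00628) at 24 weeks. Tap1, which carries peptides into the endoplasmic reticulum, had -0.11, 0.26 and -0.21 at 8 weeks, 0.05, -0.03 and 0.21 at 16 weeks, 0.11, -0.12 and 0.07 at 24 weeks and 0.07, 0.08 and 0.11 in wild type. All 4 groups overlapped, and Tap1 was among the 3 genes closest to wild type at 16 weeks, with a difference of -0.01 (95% confidence interval -0.27 to 0.25). Tap1 and Psmb9 start next to each other on opposite strands of chromosome 17.

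Rtp4, a protein known as a receptor chaperone and as a brake on antiviral sensing, had log2 ratios of -0.22, -0.71 and -0.07 at 8 weeks, 0.13, 0.32 and -0.18 at 16 weeks, 0.09, 0.25 and -0.17 at 24 weeks and -1.04, -1.79 and -0.73 in wild type. The wild type pools lay below all Apoe-/- pools, but pool 2 came within a few hundredths of wild type pool 18. Rtp4 was 2.42-fold higher (95% confidence interval 1.64 to 3.58, log2 difference 1.28 ± 0.26 SE, adjusted p = 0.00825) at 16 weeks and 2.37-fold higher (log2 1.24 ± 0.26, adjusted p = 0.00454) at 24 weeks, and both calls held in all 20 alternative settings. Ifi44 was 1.70-fold higher (log2 0.77 ± 0.17, adjusted p = 0.00685) at 24 weeks. Parp14, an ADP-ribosyltransferase, was 1.51-fold higher (log2 0.59 ± 0.16, adjusted p = 0.0184) there as the mean of 2 probes, of which 1 passed alone (0.84 ± 0.16, adjusted p = 0.00336, against 0.34 ± 0.17, adjusted p = 0.183).

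After 8 weeks of diet, 3 of 32 genes were higher than in wild type and none was lower, against 2.5% of all genes called (1.76% higher and 0.736% lower). They were Rsad2, Isg15 and Mx1. Other genes lay in that direction without passing: 27 of 32 differences were positive, against 47.6% of all genes, with a median of 0.35, against -0.01. An unadjusted p under 0.05 was found for 18 of 32, against 4213 of all 19706 genes. All 3 pools at 8 weeks lay above all wild type pools for 16 of 32 genes, against 9.26% of all genes. After 24 weeks, 21 of 32 were higher and none was lower, against 22.9% of all genes called (11.6% higher and 11.3% lower). The median difference was 0.66, and all pools were above wild type for 25 of 32 genes, against 20.0% of all genes. The 3 comparisons share the wild type pools, so their values are set side by side and are not separate evidence. Isg15 and Rsad2 passed at all 3 times. Bst2, Dhx58, Irf1, Oas1a, Oas2, Oasl1, Rtp4 and Zbp1 passed at 16 and 24 weeks. Ifi44, Ifit1, Ifitm3, Irf7, Irf9, Oas3, Parp14, Psmb8, Psmb9, Samhd1 and Usp18 passed at 24 weeks only, Mx1 at 8 weeks only and Stat2 at 16 weeks only. Without wild type pool 17 the counts were 1 at 8 weeks and 15 at 24 weeks, without wild type pool 16 the count at 8 weeks was 1, and without wild type pool 18 it was 6.

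**Figure D2:**
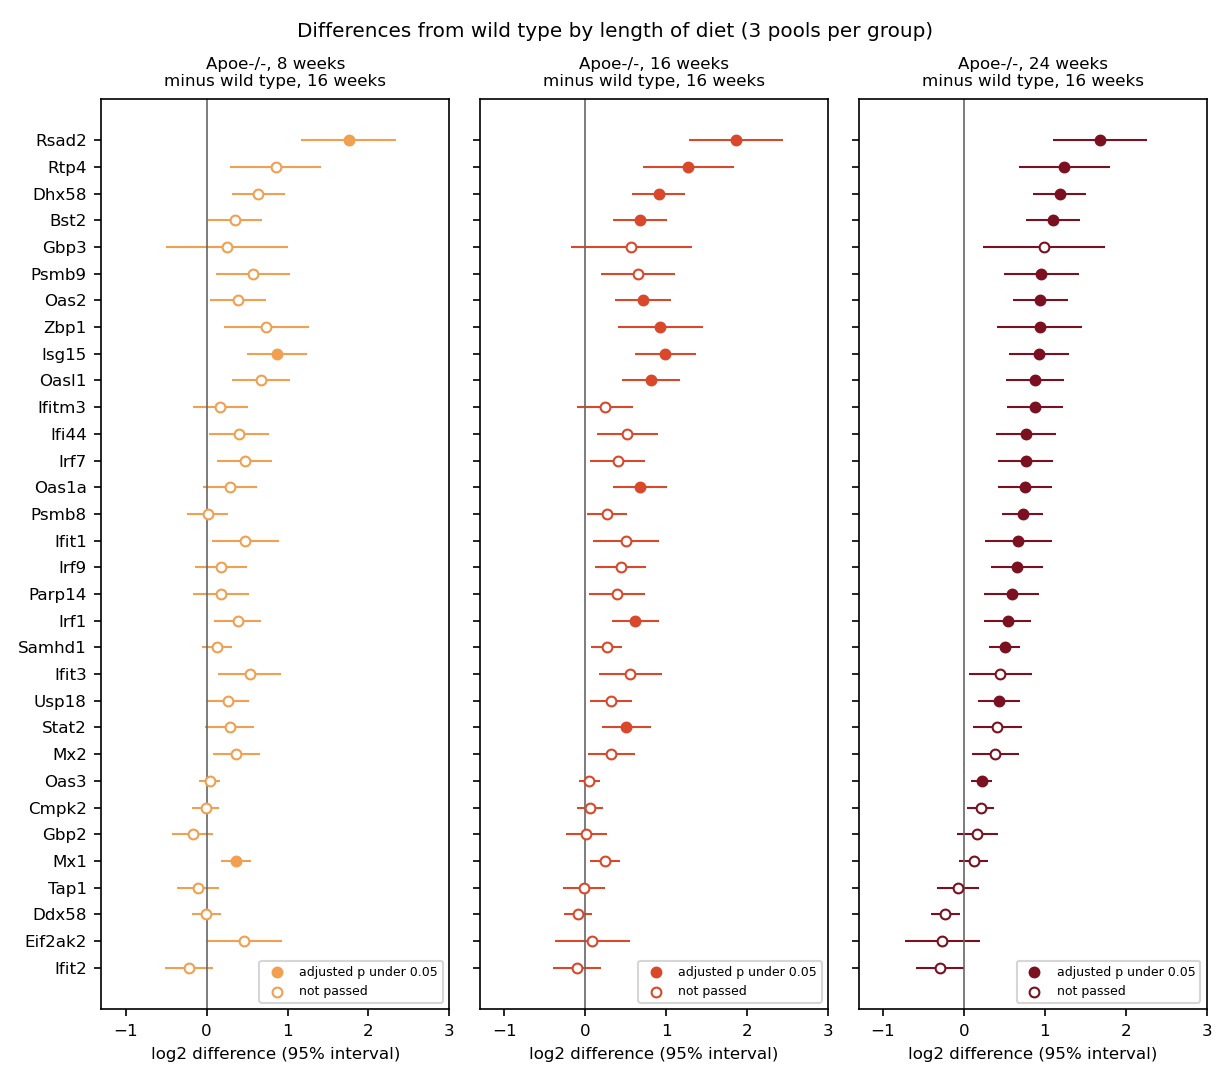
Log2 differences from wild type with 95% confidence intervals (horizontal axis) for the 32 genes (rows, ordered by the 24-week difference) in Apoe-/- arches at 8, 16 and 24 weeks, with filled points where the adjusted p was under 0.05. The filled points number 3, 11 and 21, all to the right of 0.

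The differences between diet times do not involve the wild type means, though the wild type pools enter the estimate of spread. At 24 against 8 weeks 10 of 32 genes were higher and 1 was lower. Of all genes 28.8% were called there (14.7% higher and 14.1% lower). Bst2 was 1.69-fold higher (95% confidence interval 1.34 to 2.13, log2 difference 0.76 ± 0.15 SE, adjusted p = 0.00427), Psmb8 1.64-fold higher (log2 0.71 ± 0.11, adjusted p = 0.00117) and Ifitm3 1.63-fold higher (log2 0.71 ± 0.16, adjusted p = 0.00749). These 3 calls held in all 20 alternative settings. Oas2, Dhx58, Irf9, Oas1a, Samhd1, Cmpk2 and Oas3 were also higher, by 1.14-fold to 1.48-fold. Of these, the calls of Cmpk2, Oas3 and Oas1a were lost in 15, 13 and 11 of 20 alternative settings, and that of Samhd1 came from 1 of its 2 probes (0.92 ± 0.13 against -0.17 ± 0.09). Eif2ak2 was 1.66-fold lower (95% confidence interval 1.21 to 2.29, log2 difference -0.73 ± 0.21 SE, adjusted p = 0.0250). The count of 11 moved to 4 without pool 11, 5 without pool 2, 6 without pool 10, 6 without pool 12 and 7 without pool 3. Between 16 and 8 weeks none of the 32 passed (limma), against 2.4% of all genes called (1.89% higher and 0.507% lower), and 3 of 32 had an unadjusted p under 0.05, against 2969 of all 19706 genes. No alternative setting gave a call there. Between 24 and 16 weeks Ifitm3 was 1.55-fold higher (log2 0.64 ± 0.16, adjusted p = 0.0393), Psmb8 was 1.37-fold higher (log2 0.46 ± 0.11, adjusted p = 0.0409) and none of the 32 was lower, against 5.95% of all genes called (3.98% higher and 1.96% lower). Their calls were lost in 7 and 12 of 20 alternative settings, including when pool 4, 6, 10, 11 or 12 was left out. Age and length of diet cannot be told apart in these differences.

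The genes differed in how much of the 24-week difference from wild type was already present at 8 weeks. Over the 21 genes higher at 24 weeks, the 8-week difference was a median of 53.9% of the 24-week difference, and ranged from 1.95% for Psmb8 to 104.4% for Rsad2. It exceeded 75% for 4 genes, Rsad2, Isg15, Zbp1 and Oasl1. It was below 25% for 3 genes, Psmb8, Oas3 and Ifitm3. These shares cover only genes that passed at 24 weeks and were not taken over all genes. Left out were genes such as Mx1, with the larger difference at 8 weeks, and Gbp3, with the larger at 24 weeks. Both differences use the same wild type pools. With signs kept, the step between wild type and 8 weeks was above that between 8 and 24 weeks for 18 of 32 genes. They include Eif2ak2, whose later step was a fall. Of all genes, 49.5% had the later step above the earlier one. Genes in general moved both up and down, so that share is no measure of early or late rise.

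The difference between those steps, with their signs, was tested for each gene. The later step was smaller for Rsad2 (log2 -1.83 ± 0.46, adjusted p = 0.0359) and Mx1 (-0.60 ± 0.14, adjusted p = 0.0319) and larger for Psmb8 (0.70 ± 0.20, adjusted p = 0.0497). These 3 of 32 stand against 9.54% of all genes called (5.8% with a larger later step and 3.74% with a smaller one). Eif2ak2 (-1.20 ± 0.36, adjusted p = 0.0590) and Isg15 (-0.82 ± 0.29, adjusted p = 0.0912) did not pass. The 8-week pools enter both steps with opposite signs, so an error in their mean counts in both. No call was left without pool 2, 3, 11, 12, 16 or 17. The step from 16 to 24 weeks did not differ from the step from 8 to 16 weeks for any of the 32 genes or any of all 19706 (0% called by limma), with 0 of 32 and 983 of all genes at an unadjusted p under 0.05.

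**Figure D3:**
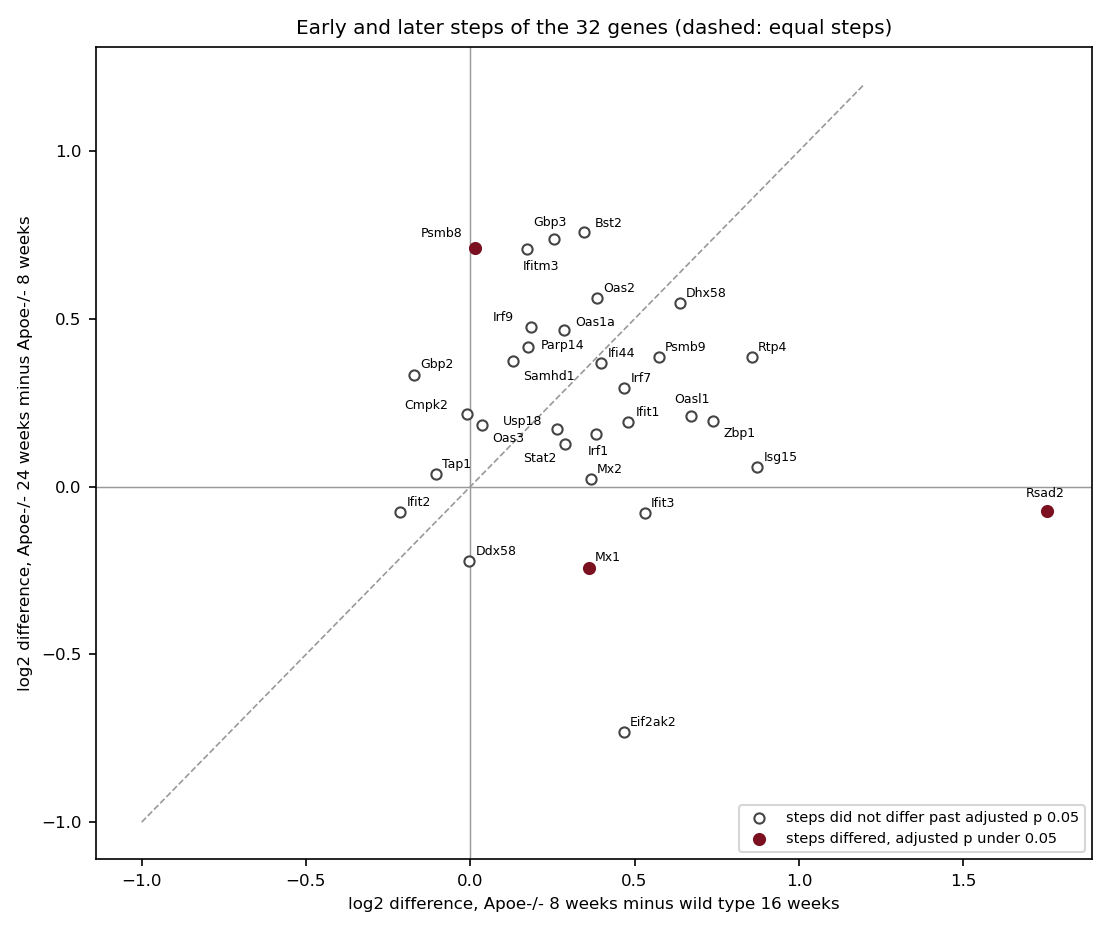
Difference between Apoe-/- at 8 weeks and wild type (horizontal axis, log2) against difference between Apoe-/- at 24 and 8 weeks (vertical axis, log2) for the 32 genes, with filled points where the steps differed at an adjusted p under 0.05. Rsad2 lies far to the right near 0 on the vertical axis, Psmb8 lies high near 0 on the horizontal axis, and Eif2ak2 is lowest.

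A score was taken for each pool as the mean log2 ratio of the 32 genes. It was -0.12, -0.19 and -0.19 at 8 weeks, -0.05, 0.06 and -0.13 at 16 weeks, 0.11, 0.14 and -0.03 at 24 weeks and -0.47, -0.78 and -0.33 in wild type. The wild type pools were lowest and did not overlap any Apoe-/- group. All 24-week pools lay above all 8-week pools, and the 16-week pools overlapped both. Group means were -0.17 ± 0.04 at 8 weeks, -0.04 ± 0.09 at 16 weeks, 0.07 ± 0.09 at 24 weeks and -0.53 ± 0.23 in wild type (SD, n = 3 pools). No test was run on the score, because the genes were chosen with earlier results known. The mean of the MX pair was 0.10 ± 0.05 at 8 weeks, 0.02 ± 0.15 at 16 weeks, -0.01 ± 0.10 at 24 weeks and -0.26 ± 0.06 in wild type. Within the pair, Mx1 had its highest mean at 8 weeks and Mx2 its highest at 24 weeks. For the 3 antigen-processing genes it was -0.23 ± 0.07, -0.09 ± 0.06 and 0.15 ± 0.11 at 8, 16 and 24 weeks and -0.39 ± 0.20 in wild type, an order that Psmb8 and Psmb9 showed for the 3 diet times and Tap1 did not. Differences between roles were not tested.

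Pools differed within groups as well. Wild type pool 17 was the lowest of its group for 24 of 32 genes, against 27.6% of all genes. Wild type pool 18 was the highest of its group for 21 of 32, against 38.4% of all genes. Pool 5 was the highest at 16 weeks for 24 of 32, against 38.8% of all genes, and pool 12 the lowest at 24 weeks for 23 of 32, against 33.6%. The wild type pools had the widest spread of the score.

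Upstream of these genes, the interferons themselves showed few differences. For this list and those below, 6.03% of all genes were called higher and 4.07% lower than wild type at 16 weeks. At 24 weeks these shares were 11.6% and 11.3%, and at 8 weeks 1.76% and 0.736%. None of 17 interferon genes passed at 8 or 16 weeks. At 24 weeks only Ifnz, named after its value was seen, passed, 1.24-fold higher (log2 0.31 ± 0.09, adjusted p = 0.0272). Between 24 and 8 weeks 2 of the 17 were higher and 1 was lower, against 14.7% of all genes higher and 14.1% lower. Ifnb1 and Ifng, named likewise, differed by -0.01 ± 0.10 (adjusted p = 0.989) and 0.33 ± 0.19 (adjusted p = 0.366) at 16 weeks and 0.04 ± 0.10 (adjusted p = 0.802) and 0.46 ± 0.19 (adjusted p = 0.106) at 24 weeks. The mean ratio of the 17 lay between -0.04 and 0.07 in all pools. Whether their probes were above background is not known. Of 6 receptor chains, 3 were higher at 16 and at 24 weeks. At 16 weeks Il10rb, shared by the receptors of lambda interferon and interleukin-10 relatives, was 1.88-fold higher (log2 0.91 ± 0.12, adjusted p = 0.000763). Ifngr1, the ligand-binding chain for interferon gamma, was 1.42-fold higher (log2 0.51 ± 0.11, adjusted p = 0.0112) and Ifnar2, a chain for type I interferon, 1.35-fold higher (log2 0.44 ± 0.09, adjusted p = 0.0128).

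Of 8 signalling genes, 3 were higher at 16 weeks and none was lower. Ptpn6, a phosphatase of blood cells that damps cytokine receptors, was 4.11-fold higher (log2 2.04 ± 0.21, adjusted p = 0.000121). Socs3, a feedback inhibitor of Stat3 signalling, was 3.91-fold higher (log2 1.97 ± 0.19, adjusted p = 8.43e-05) and Stat3 1.40-fold higher (log2 0.49 ± 0.11, adjusted p = 0.0137). Of 19 genes of nucleic acid sensing, 6 were higher and 1, Irf3, was lower at 16 weeks, and 9 were higher and none lower at 24 weeks. Irf5, a factor downstream of Toll-like receptors in myeloid cells, was 4.62-fold higher (log2 2.21 ± 0.17, adjusted p = 2.14e-05) at 16 weeks. Unc93b1, which escorts those receptors to endosomes, was 1.88-fold higher (log2 0.91 ± 0.12, adjusted p = 0.000636), the ubiquitin ligase Trim25 1.69-fold higher (log2 0.76 ± 0.15, adjusted p = 0.00871) and the RNA receptor Tlr3 1.45-fold higher (log2 0.54 ± 0.10, adjusted p = 0.00495). Irf3, named after its value was seen, was 1.22-fold lower (log2 -0.28 ± 0.08, adjusted p = 0.0363).

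Of 42 further interferon-induced genes tested, 10 were higher at 16 weeks and 19 at 24 weeks, with none lower and medians of 0.27 and 0.39. The largest at 16 weeks were Lgals3bp, 3.18-fold, Ifitm1, 2.73-fold, Oas1g, 2.08-fold, and Trim30a, 1.91-fold. Of 7 chemokines, 5 were higher at both times. Cxcl10, which draws T cells through Cxcr3, was 7.29-fold higher (log2 2.87 ± 0.62, adjusted p = 0.0124) at 16 weeks, while Ccl7, Ccl2 and Ccl5 were 6.38-fold, 5.07-fold and 2.34-fold higher. These chemokines are also induced by signals other than interferon. Of 11 other class I antigen presentation genes, 4 were higher at 16 weeks, H2-Q7 2.09-fold, H2-T23 1.67-fold, Psmb10 1.56-fold and B2m 1.23-fold. At 24 weeks 9 of the 11 were higher.

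Markers of other cells moved with the same groups. Of 15 macrophage markers, 12 were higher than in wild type at 16 weeks and 14 at 24 weeks, led at 16 weeks by Mpeg1 (22.2-fold), Ctss (20.4-fold), Tyrobp (7.35-fold) and Lgals3 (6.95-fold). Their mean ratio lay between -1.79 and -1.38 in the 8-week pools, between -0.72 and -0.23 in the 16-week pools, between 0.36 and 0.53 in the 24-week pools and between -2.83 and -2.46 in the wild type pools. At 24 against 8 weeks 14 of the 15 macrophage markers were higher and 1, Itgam, was lower. Of all genes 14.7% were higher and 14.1% lower there. Of 8 plasmacytoid dendritic cell markers, Bst2, itself in the list, and Il3ra were higher at 16 weeks. The mean of the 8 was -0.49 to -0.06, -0.27 to 0.13 and -0.29 to 0.13 at 8, 16 and 24 weeks and -0.89 to -0.44 in wild type. Among them Cox6a2 spread most and weighs heavily on this mean, with -3.15 in pool 17, -2.13 in pool 3 and 1.23 in pool 6. In pool 4, the highest at 16 weeks, Cox6a2 was -0.24, while Ly6d was 1.36 and Spib 1.00. The mean of the B cell markers was also high in pool 4 (0.74, against -0.22 in pool 5 and -0.33 in pool 6). Of 10 T and NK cell markers 5 were higher at 16 weeks, and of 9 endothelial markers 4. Of 8 conventional dendritic cell markers 3 were higher at 16 weeks, of 6 B cell markers 1, of 7 neutrophil markers 2 and of 8 fibroblast markers 2, with none lower. The shares of all genes at 16 weeks were 6.03% higher and 4.07% lower. Of 10 smooth muscle markers, 7 were lower at 16 weeks and 9 at 24 weeks, with means of 0.36 to 0.55, 0.05 to 0.13 and -0.47 to -0.28 at the 3 times and 0.54 to 0.75 in wild type. The markers were all measured as ratios, so none can be called absent. Their part in the differences of the interferon-stimulated genes was not tested.

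**Figure D4:**
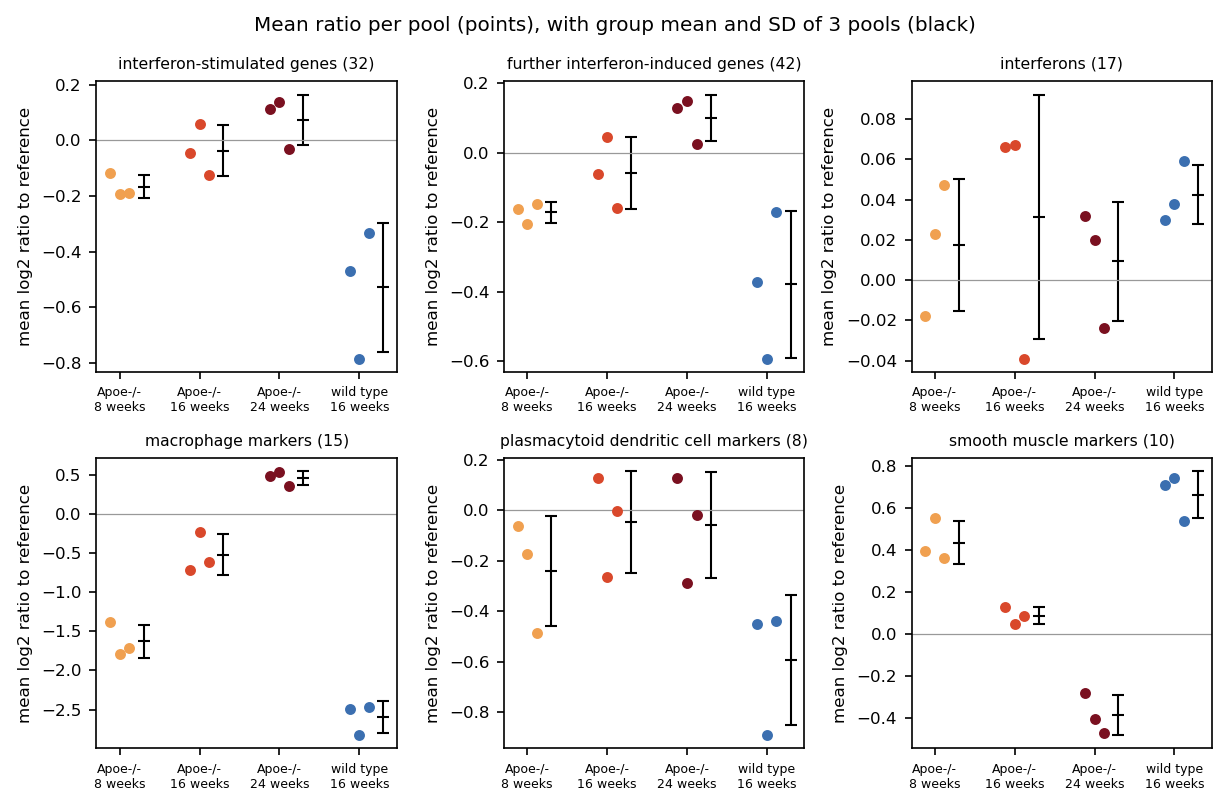
Mean log2 ratio to the reference (vertical axis) of 6 gene lists in each pool (coloured points), with the group mean and SD of 3 pools in black, and the number of genes in brackets; vertical scales differ between panels. The score of the 32 interferon-stimulated genes and of the 42 further genes is lowest in wild type, and the 17 interferons stay near 0. The mean of the macrophage markers climbs with each diet time.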

How the data were processed

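RNA of 12 pools of mouse aortic arch was measured on 2-colour arrays, 1 per pool. Per the labels' protocols, RNA was purified on spin columns with DNase and labelled by an aminoallyl method. The values analysed were the log ratios of pool to reference, taken as log10, deposited by the authors for 39556 probes. The sources used here do not give the scanner, the normalization or any filter. The log base was not stated. In each of the 9 Apoe-/- pools, the transcript furthest above the other Apoe-/- pools was examined. For the 3 with a gap over 1.5 (Tnp1, Jchain and Pth), the pool's share of the reference was worked out. It was 8.52% to 16.5% in base 10, 29.3% to 43.6% in base 2 and 23.9% to 36.8% in base e. A whole diet time holds 33.3%. Over all 9, shares ran from 1.9% to 50.4% in base 10 and from 3.3% to 63.9% in base 2. These shares assume that the pool's RNA was in the reference. The labels (no drug for the pools, vehicle for the reference) do not settle that. Base 10 is thus an assumption, and values were multiplied by 3.322 to give log2. The calls do not depend on the base, but log2 values and fold changes do.

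The platform annotation names 23283 probes with 1 gene, none with several, and 16273 with none. Names were updated through RefSeq (GRCm38.p6), and probes of a gene were averaged. All 19706 genes measured on the 12 arrays entered a limma 3.58.1 fit (R 4.3.3, lmFit, eBayes, 1 mean per group, 8 residual and 2.95 prior degrees of freedom), with two-sided p-values adjusted by Benjamini and Hochberg over all of them and a threshold of 0.05. The fit was tested on simulated data. With 3 arrays per group, their number limits the precision, and no 2 arrays were identical.

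The genes and the comparison lists were chosen with earlier results of these data known. Pool values are given for genes past the threshold at 16 weeks, the 3 largest in every other comparison and the 3 closest to 0 at 16 weeks. From other lists, the 4 largest past the threshold at 16 weeks are named. There were 8 comparisons, 8 other processing settings and 12 fits without a pool. Scores and motifs (Python 3.11.15) were described without a test.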

Additional observations from a re-analysis of the deposited data

Results flagged for a closer look

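The 24-week and 8-week differences from wild type differed for 11 of 32 genes, 34.4% of the list, against 28.8% of all genes in either direction. By direction, 31.25% of the list was higher at 24 weeks, against 14.7% of all genes. Of the list 3.125% was lower, against 14.1% of all genes. Against the same wild type pools, the 24-week difference exceeded the 8-week difference for Bst2 by 0.76 (log2), Psmb8 by 0.712, Ifitm3 by 0.709, Oas2 by 0.561, Dhx58 by 0.547, Irf9 by 0.475, Oas1a by 0.466, Samhd1 by 0.374, Cmpk2 by 0.217 and Oas3 by 0.183. For Eif2ak2 it was smaller, with a value of -0.733. Each passed the limma test of the difference itself, at an adjusted p of 0.00117 for Psmb8 and up to 0.0495 for Cmpk2. Because the wild type means cancel, this is the difference between Apoe-/- arches at 24 and 8 weeks. The calls of Cmpk2, Oas3 and Oas1a were lost in 15, 13 and 11 of 20 alternative settings.

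The step from 8 to 24 weeks differed from the step between wild type and 8 weeks for 3 of 32 genes, about the share of all genes (9.54%). It was smaller for Rsad2, with a value of -1.828, and for Mx1, with -0.601. It was larger for Psmb8, by 0.697. These calls were lost in 9 (Rsad2), 9 (Mx1) and 16 (Psmb8) of 20 alternative settings.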

How the results depend on the processing

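No paired analysis was possible because the groups share no pool numbers. Over the genes that passed a test, each refitted under 20 alternative settings, 827 values kept their call, 193 kept the direction but missed the threshold and 0 changed direction. The number of the 32 genes that passed changed most with the scaling between arrays and with the weights of arrays. With quantile normalization it was 0 for 8 weeks against wild type, 2 for 16 weeks against wild type, 6 for 24 against 16 weeks, 1 for the later against the earlier step and 1 for the second against the first diet step, in place of 3, 11, 2, 3 and 0. With array weights it was 24 for 16 weeks against wild type, 9 for 24 against 16 weeks (6 higher and 3 lower), 6 for 24 against 8 weeks and 0 for the later against the earlier step. With the fit limited to the groups compared it was 0 for 8 weeks against wild type. With trend and robust settings it was 0 for 24 against 16 weeks. Without pools 3 and 6 it was 1 for 8 weeks against wild type, 0 for 24 against 16 weeks and 0 for the later against the earlier step. Leaving out each pool in turn gave 1 to 6 genes for 8 weeks, 6 to 15 for 16 weeks and 15 to 25 for 24 weeks against wild type, 0 to 0 for 16 against 8 weeks, 0 to 2 for 24 against 16 weeks, 4 to 13 for 24 against 8 weeks, 0 to 4 for the later against the earlier step and 0 to 0 for the second against the first diet step. At 24 weeks against wild type none of the 32 was lower as reported, but 1 was with quantile normalization, 2 with array weights and 1 with the fit limited to the groups compared. Over the 8 processing settings, calls among all genes ran between 7 (quantile) and 693 (array weights) at 8 weeks, 892 (quantile) and 5605 (array weights) at 16 weeks, and 4200 (median centring) and 8182 (array weights) at 24 weeks against wild type, in place of 492, 1991 and 4504. For 16 against 8 weeks they ran between 0 (only the groups compared) and 515, in place of 472. For 24 against 16 weeks they ran between 200 (without pools 3 and 6) and 6296 (array weights), in place of 1172. For 24 against 8 weeks they ran between 3267 (only the groups compared) and 5872 (the probe with the largest difference per gene), in place of 5675. For the later against the earlier step they ran between 364 (without pools 3 and 6) and 1980 (the probe with the largest difference per gene), in place of 1880. For the second against the first diet step they ran between 0 and 865 (quantile), in place of 0. Without single pools these counts were 137 to 757, 1231 to 3051, 3105 to 6238, 167 to 758, 119 to 2572, 2955 to 7019, 383 to 4182 and 0 to 0 in the same order. With quantile normalization the split of higher and lower genes was 400 and 492 at 16 weeks (1189 and 802 as reported), 0 and 7 at 8 weeks (347 and 145) and 2572 and 2462 for 24 against 16 weeks (785 and 387). The causes were not tested. The mean score of each group moved by less than 1 SD with each scaling tried. A filter on dim probes and a slide effect could not be tried, since the files hold ratios only.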
